A study of Mus musculus with 12 samples.

Results

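The p53 network was read here through 31 genes: Trp53, which encodes p53, its regulators Mdm2 and Mdm4, and 28 established targets. Members were taken by gene symbol from the 33641 genes of the deposited tables. The list was drawn up with earlier results of these data known, so shares over it are descriptions. All 31 were found, and 30 had enough reads to be tested among 15130 genes. RNA came from mouse macrophages of the peritoneal cavity, untreated and at day 0, in 4 genotypes of 3 libraries each. The genotypes were SAMHD1 MDA5 DKO, which lacks both proteins, SAMHD1 KO, MDA5 KO and WT. SAMHD1 breaks down deoxynucleotides. MDA5, the product of Ifih1, senses double-stranded RNA in the cytosol. The labels name no allele, strain, sex or age and do not state that libraries of one genotype are separate animals, so the p-values measure the spread between these libraries, which may in part be technical. The series title places the comparison within the question of whether MDA5 is activated where SAMHD1 is missing.

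p53 is a transcription factor that is kept scarce in unstressed cells because MDM2, itself a p53 target, marks it for degradation, while MDM4 holds back its activity. DNA damage and other stresses release it. It then raises genes of cell cycle arrest, DNA repair, metabolic restraint and cell death, and the arrest gene Cdkn1a in turn lowers proliferation genes through the DREAM repressor. Most of this control acts on the protein, so the Trp53 transcript itself is a poor guide to activity, and the targets are the usual readout.

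p53 binds a consensus of 2 half-sites of 10 bases each, separated by few or no bases. RefSeq promoter windows on GRCm38.p6, from 250 bases before to 50 bases after a start, were found for 24 of the 31 genes, the others being Trp53inp1, Pmaip1, Zmat3, Tnfrsf10b, Perp, Xpc and Ddb2. Each window was searched for the p53 response element consensus with a spacer of at most 1 base, and the matching positions out of 20 were counted. The best match was 0 for Fas and 8 for Gadd45a, so not every placement was counted, by a rule that is not given here. The consensus reads the same on both strands, so both were covered. A best match of at least 18 positions was present for 5 of 24 genes (20.8%), against 0.807% of the 27025 genes with a window. Those 5 promoters are shown because they carry the best matches, and Phlda3 because its level differed most between genotypes. Capitals mark the half-sites, and each line is read 5′ to 3′ on the strand of the gene.

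Cdkn1a (19 of 20 positions, chr17:29090908-29090967, plus strand): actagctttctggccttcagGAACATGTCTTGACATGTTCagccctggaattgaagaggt
Ccng1 (19 of 20, chr11:40755442-40755501, minus strand): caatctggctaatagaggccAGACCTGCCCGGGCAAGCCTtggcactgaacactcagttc
Rps27l (19 of 20, chr9:66946276-66946335, plus strand): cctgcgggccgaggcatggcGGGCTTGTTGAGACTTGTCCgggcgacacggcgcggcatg
Bax (18 of 20, spacer of 1 base, chr7:45467059-45467119, minus strand): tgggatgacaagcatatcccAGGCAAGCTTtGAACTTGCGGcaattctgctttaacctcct
Ckap2 (18 of 20, chr8:22185983-22186042, minus strand): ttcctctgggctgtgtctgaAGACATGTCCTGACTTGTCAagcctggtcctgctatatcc
Phlda3 (15 of 20, chr1:135766022-135766081, plus strand): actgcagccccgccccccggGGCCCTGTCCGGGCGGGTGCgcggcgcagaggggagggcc

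The Cdkn1a match lay 51 to 32 bases before the start of its window and the Rps27l match 117 to 98 bases before that of its own. Both genes have 2 windows, so these positions hold for 1 start of each and not for the other. At least 15 matching positions, the Phlda3 level, were found for 25.3% of all genes, so a match of that grade is common. Further p53 targets are known to be bound outside such windows, and a match is a description of letters, not of binding.

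**Figure D1:**
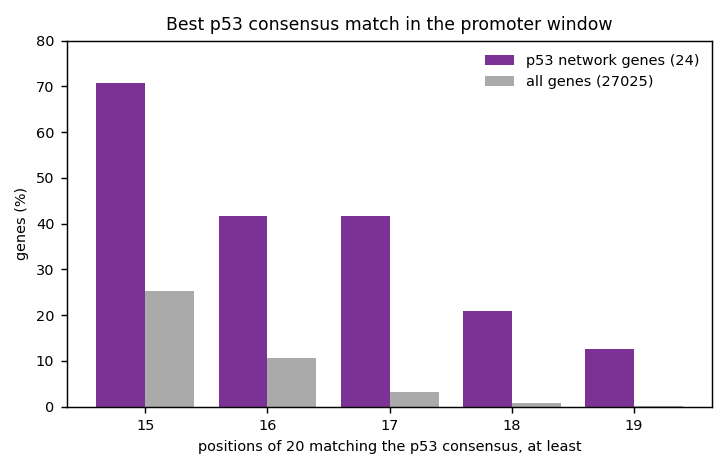
Share of genes (%) whose promoter window holds a p53 consensus match of at least the number of positions on the horizontal axis, for the 24 p53 network genes with a window and for all 27025 genes. At 18 positions or more the shares were 20.8% and 0.807%.

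Recovered totals ran from 33234361 reads in WT 3 to 58345425 in SAMHD1 MDA5 DKO 1. A normalised read below is a read divided by the size factor of its library, and a number after a genotype names its replicate. Samhd1 lay between 1747 and 4960 normalised reads in the 6 libraries of SAMHD1 MDA5 DKO and SAMHD1 KO, against 7067 to 17460 in the 6 others, with WT 3 the lowest of these. Ifih1 was at 41.9 or fewer in all 6 libraries without MDA5, against 816 to 3745 in the 6 others. All 9 macrophage markers had reads in every library, and their sum in normalised reads was highest in SAMHD1 KO 2 and 3 (5248000 and 4974000), lowest in WT 3 (671800) and between 1838000 and 3110000 in the other 9 libraries. Such a sum follows its most abundant markers, and single markers differed. Adgre1 was highest in WT 3 (243400 normalised reads), while Gata6 was lowest there (4901). WT 3 stood apart from the other WT libraries by a median of 0.89 on the log2 scale, against 0.21 to 0.53 for the other 11 libraries. WT 2 had the highest summed B cell markers (12750 normalised reads, against 130 to 798 in the rest) and mast cell markers (14840, against 1519 to 4704). Reads in olfactory genes, which macrophages should lack, covered 800 of 1038 such genes in MDA5 KO 2 and 107 to 194 in the other libraries. The authors' library values had been levelled within each deposited table, between whichever of WT 3, SAMHD1 KO 2 and SAMHD1 MDA5 DKO 3 it holds and its other libraries. No label explains this split, and those 3 libraries are called the adjusted set below. The part of these differences in the results was not tested, and values without the libraries concerned are given where they matter.

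No member differed between any pair of genotypes at an adjusted p under 0.05 (limma, Benjamini-Hochberg over 15130 genes), and the smallest adjusted p of a member was 0.127. The same held for the interaction, and over all genes between 0% and 0.0132% passed per comparison (0.00661% in 3 of them), so calls were as rare outside the network. At an unadjusted limma p under 0.05, 20 members passed in at least 1 of the 6 pairwise comparisons, and 51 of 180 tests did. Differences below are in mean log2(normalised reads + 1), with their standard error, and the p printed for a gene is the adjusted one. A member is said to have passed where its unadjusted p was under 0.05. In SAMHD1 KO minus WT 9 of 30 members passed (5 higher, 4 lower), against 15.4% of all genes. In SAMHD1 MDA5 DKO minus WT 14 passed (6 higher, 8 lower), or 46.7% against 27.8%, and in MDA5 KO minus WT 8 (6 higher, 2 lower), or 26.7% against 22.4%. SAMHD1 MDA5 DKO minus SAMHD1 KO gave 8 (2 higher, 6 lower), or 26.7% against 8.81%, and SAMHD1 MDA5 DKO minus MDA5 KO gave 2, both lower, or 6.67% against 1.02%. SAMHD1 KO minus MDA5 KO gave 10 (4 higher, 6 lower), or 33.3% against 9.53%.

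Both directions occurred among the members in every comparison. Of the 30 tested members 14 were higher and 16 lower in SAMHD1 MDA5 DKO minus WT, 12 and 18 in SAMHD1 KO minus WT, and 17 and 13 in MDA5 KO minus WT. The split was most uneven in SAMHD1 MDA5 DKO minus MDA5 KO, with 7 higher and 23 lower. The median log2 difference of the members was -0.04, -0.11 and 0.06 in these comparisons, against 0.07, 0.03 and 0.08 over all genes. It was 0.05 for SAMHD1 MDA5 DKO minus SAMHD1 KO (0.02 over all genes), -0.07 for SAMHD1 MDA5 DKO minus MDA5 KO (0.00 over all genes) and -0.13 for SAMHD1 KO minus MDA5 KO (-0.01 over all genes). The pooled SD between libraries of one genotype of the members' median level was 0.187. That SD is for single libraries and not for differences of genotype means, so it does not measure the error of these medians. Without WT 3, 10 members passed in SAMHD1 MDA5 DKO minus WT (17.0% of all genes), 6 in SAMHD1 KO minus WT (8.88%) and 5 in MDA5 KO minus WT (13.2%). Without MDA5 KO 2, 4 members passed in SAMHD1 KO minus MDA5 KO (3.46%) and 2 in SAMHD1 MDA5 DKO minus MDA5 KO (0.463%). Without SAMHD1 KO 1, 4 passed in SAMHD1 MDA5 DKO minus MDA5 KO (1.23%), a comparison that library enters only through the shared fit. In the libraries outside the adjusted set, 4 passed in SAMHD1 MDA5 DKO minus SAMHD1 KO (5.71%), 5 in SAMHD1 KO minus MDA5 KO (8.79%) and 8 in SAMHD1 MDA5 DKO minus WT (14.4%).

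**Figure D2:**
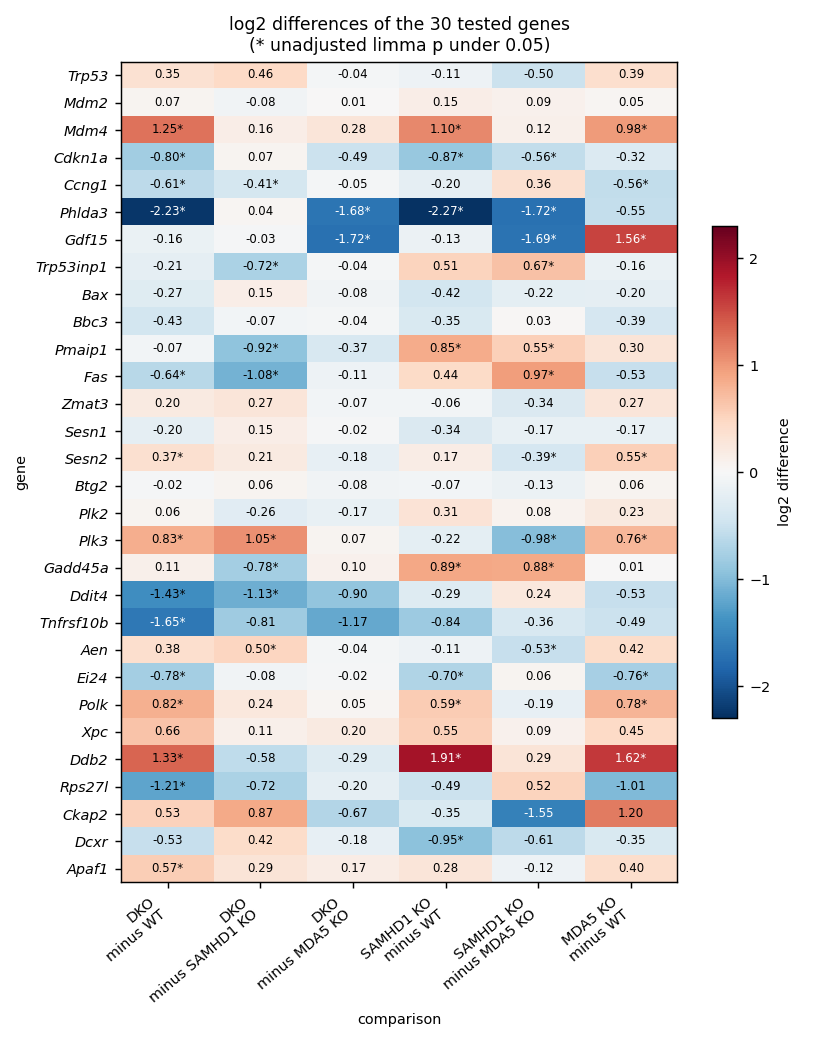
Log2 difference of each of the 30 tested genes (rows) in the 6 pairwise comparisons (columns), red for higher and blue for lower in the genotype named first, with an asterisk at an unadjusted limma p under 0.05 and DKO standing for SAMHD1 MDA5 DKO. Phlda3 is the deepest blue, at -2.23 and -2.27 in the SAMHD1 MDA5 DKO and SAMHD1 KO comparisons with WT, while Mdm2 stays between -0.08 and 0.15 in every column.

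Levels are compared between genes per kilobase of exon, as mean normalised reads over the 12 libraries. Rps27l, a relative of ribosomal protein S27, had 3230 per kilobase, Btg2, which restrains proliferation, 2230, and Ccng1, cyclin G1, 1890. These lay at percentiles 95.4, 93.5 and 92.3 of the tested genes. Trp53 had 527, Mdm2 494 and Mdm4 207 per kilobase, at percentiles 75.7, 74.2 and 54.9. The lowest tested member was Tnfrsf10b, a receptor for the death ligand TRAIL, at 4.26 per kilobase. Perp, a membrane protein of cell junctions with a role in cell death, was not tested. It had 17 reads in all: 3 in SAMHD1 KO 2, 9 in MDA5 KO 2 and 5 in WT 1.

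Trp53 (ENSMUSG00000059552, chromosome 11, 69580359 to 69591873 on GRCm38) had 2144, 2220 and 2835 normalised reads in the SAMHD1 MDA5 DKO libraries, 2549, 1478 and 1379 in those of SAMHD1 KO, 2234, 2595 and 2532 in those of MDA5 KO and 1988, 1905 and 1736 in those of WT. All libraries of SAMHD1 MDA5 DKO and of MDA5 KO lay above the 3 WT libraries, while SAMHD1 KO spanned both sides. The difference was 0.35 ± 0.23 (adjusted p = 0.324, limma) in SAMHD1 MDA5 DKO minus WT and 0.39 ± 0.23 (adjusted p = 0.304) in MDA5 KO minus WT. In SAMHD1 KO minus WT it was -0.11 ± 0.23, with a 95% interval of -0.61 to 0.39.

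Mdm2, the ubiquitin ligase that limits p53 and a p53 target itself, was the flattest of the regulators. It had 2841, 2692 and 2012 normalised reads in the SAMHD1 MDA5 DKO libraries, 2265, 2827 and 2816 in those of SAMHD1 KO, 3002, 2019 and 2462 in those of MDA5 KO and 2229, 2689 and 2221 in those of WT. The 4 genotypes overlapped. Its 6 pairwise differences ran from -0.08 to 0.15, with 95% limma intervals between -0.53 and 0.60, so a change of that size in either direction is within the error.

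Mdm4, the inhibitory partner of p53, was higher in each knockout than in WT. It had 4903, 4125 and 2602 normalised reads in the SAMHD1 MDA5 DKO libraries, 3577, 3329 and 3198 in those of SAMHD1 KO, 5575, 2214 and 2405 in those of MDA5 KO and 2093, 1758 and 1051 in those of WT. Every knockout library lay above every WT library, and MDA5 KO 1 was far above the other MDA5 KO libraries. The difference was 1.25 ± 0.36 in SAMHD1 MDA5 DKO minus WT (adjusted p = 0.127, limma), 1.10 ± 0.36 in SAMHD1 KO minus WT (adjusted p = 0.312) and 0.98 ± 0.36 in MDA5 KO minus WT (adjusted p = 0.196). Without WT 3 the differences were 0.97, 0.82 and 0.69, of which the last did not pass. Without MDA5 KO 1 that of MDA5 KO was 0.55 and did not pass either.

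Cdkn1a encodes p21, the inhibitor of cyclin-dependent kinases that carries most of the p53 arrest response, and it was lower in both genotypes without SAMHD1 than in WT. It had 1661, 1917 and 2344 normalised reads in the SAMHD1 MDA5 DKO libraries, 2545, 1616 and 1566 in those of SAMHD1 KO, 2433, 2680 and 3150 in those of MDA5 KO and 3177, 2910 and 4290 in those of WT. Both genotypes without SAMHD1 lay wholly below WT, and SAMHD1 MDA5 DKO also lay wholly below MDA5 KO, which SAMHD1 KO overlapped. The difference was -0.80 ± 0.24 in SAMHD1 MDA5 DKO minus WT (adjusted p = 0.127, limma) and -0.87 ± 0.24 in SAMHD1 KO minus WT (adjusted p = 0.312). Without WT 3 these were -0.64 and -0.70. SAMHD1 MDA5 DKO minus MDA5 KO, at -0.49 ± 0.24 (adjusted p = 1), did not pass, and SAMHD1 KO minus MDA5 KO gave -0.56 ± 0.24 (adjusted p = 0.513). An annotated gene on the opposite strand, AC167363.2, covers 7.68% of the exonic bases of Cdkn1a, and the strandedness of the libraries is not given in the sources used here.

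Ccng1, a cyclin that recruits a phosphatase to MDM2, was lower in the libraries without MDA5. It had 5457, 5433 and 5300 normalised reads in the SAMHD1 MDA5 DKO libraries, 6171, 7600 and 7901 in those of SAMHD1 KO, 6047, 5085 and 5665 in those of MDA5 KO and 7353, 8540 and 8918 in those of WT. All 6 libraries without MDA5 lay below all 6 with it. The difference was -0.61 ± 0.17 in SAMHD1 MDA5 DKO minus WT (adjusted p = 0.127, limma), -0.41 ± 0.17 in SAMHD1 MDA5 DKO minus SAMHD1 KO (adjusted p = 0.562) and -0.56 ± 0.17 in MDA5 KO minus WT (adjusted p = 0.196). Without WT 3 the differences from WT were -0.55 and -0.50.

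Plk3, a stress-responsive polo-like kinase, showed the opposite pattern. It had 518, 572 and 597 normalised reads in the SAMHD1 MDA5 DKO libraries, 354, 236 and 238 in those of SAMHD1 KO, 515, 632 and 474 in those of MDA5 KO and 315, 254 and 392 in those of WT. All 6 libraries without MDA5 lay above all 6 with it. The difference was 0.83 ± 0.24 in SAMHD1 MDA5 DKO minus WT (adjusted p = 0.127, limma), 1.05 ± 0.24 in SAMHD1 MDA5 DKO minus SAMHD1 KO (adjusted p = 0.562) and 0.76 ± 0.24 in MDA5 KO minus WT (adjusted p = 0.196). SAMHD1 KO minus MDA5 KO gave -0.98 ± 0.24 (adjusted p = 0.29). Without SAMHD1 KO 1 the differences of SAMHD1 MDA5 DKO minus SAMHD1 KO and of SAMHD1 KO minus MDA5 KO were 1.24 and -1.17, with adjusted p-values of 0.0468 and 0.0469.

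Among the members, 1 (Ccng1) had all 6 libraries without MDA5 below the 6 others, as had 1.63% of all tested genes, and 3 (Plk3, Sesn2 and Polk) had them above, as had 1.43%. For SAMHD1, 1 member (Phlda3) had all 6 libraries without it below the 6 others, as had 0.106% of all tested genes, and 0 members had them above, as had 0.132%.

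Gadd45a, which slows the cycle and aids repair after DNA damage, was highest in 2 libraries of SAMHD1 KO. It had 981, 1130 and 793 normalised reads in the SAMHD1 MDA5 DKO libraries, 989, 1980 and 2263 in those of SAMHD1 KO, 1277, 679 and 817 in those of MDA5 KO and 835, 1251 and 663 in those of WT. SAMHD1 KO 1 stood with the other genotypes, so the groups overlapped. The same 2 libraries, SAMHD1 KO 2 and 3, had the highest summed macrophage markers (5248000 and 4974000, against 1920000 in SAMHD1 KO 1). They were nonetheless below SAMHD1 KO 1 for Csf1r (61690 and 63100, against 116300), Adgre1 (121000 and 126000, against 159500) and Gata6 (5248 and 5140, against 7661). The sum therefore does not stand for each marker, and the part of these markers in the result was not tested. The difference was -0.78 ± 0.34 in SAMHD1 MDA5 DKO minus SAMHD1 KO (adjusted p = 0.562, limma) and 0.89 ± 0.34 in SAMHD1 KO minus WT (adjusted p = 0.312). Without WT 3 the difference from WT was 0.69 and did not pass. Against MDA5 KO, SAMHD1 KO differed by 0.88 ± 0.34 (adjusted p = 0.494). The gene E230016M11Rik on the opposite strand covers 19.1% of its exonic bases.

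Of the other cell cycle genes, Btg2 ran from 5122 to 7353 normalised reads over the 12 libraries and Plk2, another stress-responsive polo-like kinase, from 817 to 1558. Ckap2, a spindle protein, was at 5.82 in SAMHD1 KO 1 and between 41.8 and 146 in the other 11 libraries. None of these passed in a pairwise comparison.

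**Figure D3:**
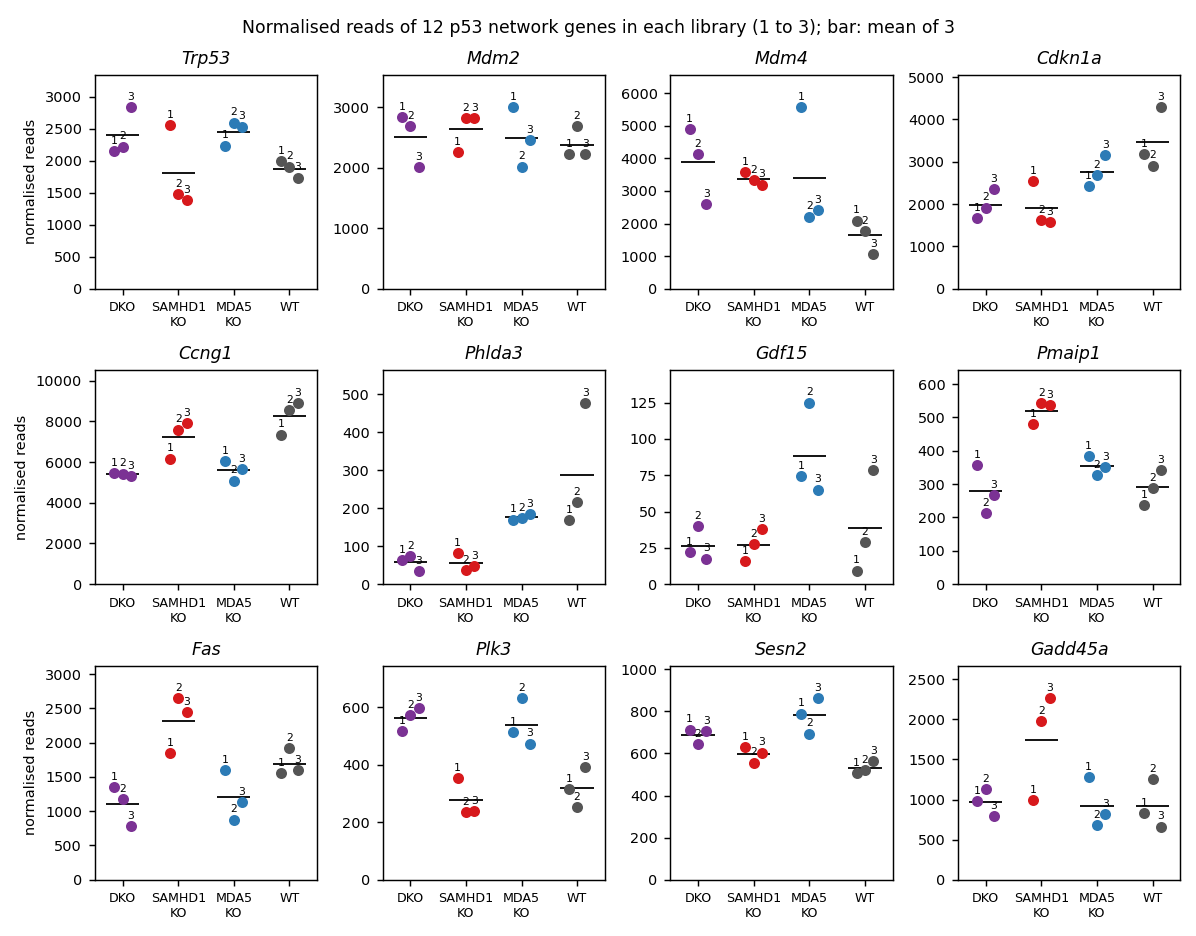
Normalised reads (linear axis from 0) of 12 p53 network genes in each library, by genotype, with the replicate number at each point and a bar at the mean of 3. Phlda3 sits at 34.1 to 82.3 in the 6 libraries without SAMHD1 and at 169 to 478 in the 6 others, and Plk3 at 474 to 632 in the 6 libraries without MDA5 and at 236 to 392 in the 6 others.

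Phlda3 (ENSMUSG00000041801, chromosome 1, 135766119 to 135769136) encodes a pleckstrin homology domain protein that restrains the survival kinase AKT, and it had the largest pairwise differences of any member. It had 63.4, 74.9 and 34.1 normalised reads in the SAMHD1 MDA5 DKO libraries, 82.3, 37.9 and 47.7 in those of SAMHD1 KO, 170, 175 and 185 in those of MDA5 KO and 169, 217 and 478 in those of WT. All 6 libraries without SAMHD1 lay below all 6 with it, whether or not MDA5 was present. The difference was -2.23 ± 0.44 in SAMHD1 MDA5 DKO minus WT (adjusted p = 0.127, limma) and -2.27 ± 0.44 in SAMHD1 KO minus WT (adjusted p = 0.312). WT 3 was the highest library, and without it these were -1.79 and -1.83. SAMHD1 MDA5 DKO minus MDA5 KO, which holds no WT library, gave -1.68 ± 0.44 (adjusted p = 1), or 0.313-fold, and SAMHD1 KO minus MDA5 KO gave -1.72 ± 0.44 (adjusted p = 0.358). On the deposited log2 values these 2 were -0.33 and -0.57. Those values are variance-stabilised, with smaller differences at low levels, and they also carry the levelling of the adjusted set. In these 2 comparisons the levelling put SAMHD1 MDA5 DKO 3 or SAMHD1 KO 2 at the mean of all the other libraries compared. That library then carries no difference of its own. The part of each in the smaller differences was not tested. Between SAMHD1 MDA5 DKO and SAMHD1 KO the difference was 0.04, with a 95% interval of -0.92 to 1.0. In the libraries outside the adjusted set the differences of SAMHD1 MDA5 DKO and of SAMHD1 KO from WT were -1.46 and -1.59. RNA of whole preparations was measured, so fewer cells of a type that expresses the gene and less RNA per cell cannot be told apart. Among the libraries with SAMHD1, summed B cell markers ran from 130 to 12750 and mast cell markers from 2761 to 14840, against 236 to 798 and 1519 to 3763 in those without it. Summed mesothelial and epithelial markers were at 11.7 to 20.9 in SAMHD1 MDA5 DKO and 9.98 to 20.8 in SAMHD1 KO, against 2.57 to 107 in MDA5 KO and 38.1 to 83.2 in WT. The part of these markers in the result was not tested.

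Pmaip1 encodes NOXA, a BH3-only activator of mitochondrial cell death, and was highest in SAMHD1 KO. It had 357, 213 and 266 normalised reads in the SAMHD1 MDA5 DKO libraries, 479, 544 and 536 in those of SAMHD1 KO, 383, 328 and 350 in those of MDA5 KO and 238, 289 and 343 in those of WT. The 3 SAMHD1 KO libraries lay above all 9 others. The difference was -0.92 ± 0.24 in SAMHD1 MDA5 DKO minus SAMHD1 KO (adjusted p = 0.562, limma), 0.85 ± 0.24 in SAMHD1 KO minus WT (adjusted p = 0.312) and -0.07 ± 0.24 in SAMHD1 MDA5 DKO minus WT. Without WT 3 the second was 0.99.

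Fas, a death receptor, was likewise higher in SAMHD1 KO than in the genotypes without MDA5. It had 1356, 1179 and 782 normalised reads in the SAMHD1 MDA5 DKO libraries, 1845, 2647 and 2448 in those of SAMHD1 KO, 1601, 877 and 1130 in those of MDA5 KO and 1559, 1914 and 1593 in those of WT. SAMHD1 KO lay wholly above SAMHD1 MDA5 DKO and MDA5 KO and overlapped WT. The difference was -1.08 ± 0.26 in SAMHD1 MDA5 DKO minus SAMHD1 KO (adjusted p = 0.562, limma) and -0.64 ± 0.26 in SAMHD1 MDA5 DKO minus WT (adjusted p = 0.153, limma, and -0.68 without WT 3). Without SAMHD1 MDA5 DKO 3 the difference from WT was -0.41 and did not pass. SAMHD1 KO minus MDA5 KO gave 0.97 ± 0.26 (adjusted p = 0.376). Summed levels of 5 erythroid markers differed too, at 372 to 585 normalised reads in SAMHD1 KO, against 1.76 to 84.9 in SAMHD1 MDA5 DKO, at most 102 in MDA5 KO and 12.1 to 517.5 in WT, and their part in the result was not tested.

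Trp53inp1, a cofactor of p53 in stress and autophagy, had 2422, 1522 and 1172 normalised reads in the SAMHD1 MDA5 DKO libraries, 2368, 2813 and 2877 in those of SAMHD1 KO, 2357, 1245 and 1607 in those of MDA5 KO and 1880, 2498 and 1411 in those of WT. It differed by -0.72 ± 0.31 in SAMHD1 MDA5 DKO minus SAMHD1 KO (adjusted p = 0.562, limma) and by 0.67 ± 0.31 in SAMHD1 KO minus MDA5 KO (adjusted p = 0.521), in groups that overlapped or nearly touched. Aen, a nuclease that promotes cell death, ran the other way. It had 401, 483 and 528 normalised reads in the SAMHD1 MDA5 DKO libraries, 364, 292 and 342 in those of SAMHD1 KO, 458, 510 and 471 in those of MDA5 KO and 447, 369 and 278 in those of WT. Its difference was 0.50 ± 0.22 in SAMHD1 MDA5 DKO minus SAMHD1 KO (adjusted p = 0.562) and -0.53 ± 0.22 in SAMHD1 KO minus MDA5 KO (adjusted p = 0.507).

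Tnfrsf10b had 8.36, 3.53 and 5.85 normalised reads in the SAMHD1 MDA5 DKO libraries, 5.82, 14.9 and 13.5 in those of SAMHD1 KO, 14.5, 9.99 and 18.3 in those of MDA5 KO and 20.5, 10.3 and 36.5 in those of WT. SAMHD1 MDA5 DKO lay below WT by -1.65 ± 0.65 (adjusted p = 0.141, limma), and by -1.24, which did not pass, without WT 3. These are few reads, so counting error is large. Apaf1, the core of the apoptosome, was steadier, with 4028, 4174 and 4334 normalised reads in the SAMHD1 MDA5 DKO libraries, 4288, 3085 and 3034 in those of SAMHD1 KO, 4304, 3472 and 3416 in those of MDA5 KO and 3181, 2879 and 2450 in those of WT. SAMHD1 MDA5 DKO lay wholly above WT, by 0.57 ± 0.19 (adjusted p = 0.127), and by 0.46 without WT 3.

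Ei24, a membrane protein of the endoplasmic reticulum, had 2575, 2605 and 3061 normalised reads in the SAMHD1 MDA5 DKO libraries, 3037, 2741 and 2943 in those of SAMHD1 KO, 2464, 2932 and 2972 in those of MDA5 KO and 3396, 3394 and 9022 in those of WT. WT 3 alone stood far above the rest. The difference was -0.78 ± 0.31 in SAMHD1 MDA5 DKO minus WT (adjusted p = 0.144, limma), -0.70 ± 0.31 in SAMHD1 KO minus WT (adjusted p = 0.318) and -0.76 ± 0.31 in MDA5 KO minus WT (adjusted p = 0.199). Without WT 3 these shrank to -0.31, -0.22 and -0.29, none of which passed. Gm26787 on the opposite strand covers 6.66% of the exonic bases of Ei24.

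Bax and Bbc3, the mitochondrial pore former and the BH3-only protein PUMA, did not pass in a pairwise comparison. Bax ran from 853 to 1144 normalised reads over 11 libraries and reached 1998 in WT 3, and Bbc3 ran from 232 to 540. Zmat3, an RNA-binding target of p53, ran from 599 to 1034 without passing.

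Gdf15, a secreted stress cytokine, was highest in MDA5 KO and low throughout. It had 22.3, 39.7 and 17.6 normalised reads in the SAMHD1 MDA5 DKO libraries, 15.8, 27.5 and 37.9 in those of SAMHD1 KO, 74.4, 125 and 65.1 in those of MDA5 KO and 9.30, 28.8 and 78.4 in those of WT. MDA5 KO lay wholly above SAMHD1 MDA5 DKO and SAMHD1 KO and overlapped WT through WT 3. The difference was -1.72 ± 0.68 in SAMHD1 MDA5 DKO minus MDA5 KO (adjusted p = 1, limma), -1.69 ± 0.68 in SAMHD1 KO minus MDA5 KO (adjusted p = 0.495) and 1.56 ± 0.68 in MDA5 KO minus WT (adjusted p = 0.206). Leaving out WT 3, the last was 2.29, and without WT 1, the lowest library, it was 0.82 and did not pass. Without MDA5 KO 2, the highest library, the 3 differences were -1.44, -1.41 and 1.29, none of which passed.

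The sestrins are stress proteins that restrain mTOR signalling. Sesn2 had 713, 645 and 707 normalised reads in the SAMHD1 MDA5 DKO libraries, 629, 557 and 604 in those of SAMHD1 KO, 789, 694 and 862 in those of MDA5 KO and 508, 521 and 565 in those of WT. All 6 libraries without MDA5 lay above the 6 others, by a small margin. The difference was 0.55 ± 0.17 in MDA5 KO minus WT (adjusted p = 0.196, limma), 0.37 ± 0.17 in SAMHD1 MDA5 DKO minus WT (adjusted p = 0.179) and -0.39 ± 0.17 in SAMHD1 KO minus MDA5 KO (adjusted p = 0.521). Without WT 3 the differences from WT were 0.60 and 0.42. Sesn1 ran from 5092 to 7837 and passed in no pairwise comparison.

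Ddit4, another brake on mTOR, was lowest in SAMHD1 MDA5 DKO. It had 86.4, 41.4 and 86.8 normalised reads in the SAMHD1 MDA5 DKO libraries, 303, 106 and 105 in those of SAMHD1 KO, 118, 86.2 and 201 in those of MDA5 KO and 184, 220 and 154 in those of WT. SAMHD1 MDA5 DKO lay wholly below SAMHD1 KO and WT. The difference was -1.43 ± 0.47 from WT (adjusted p = 0.127, limma, and -1.56 without WT 3) and -1.13 ± 0.47 from SAMHD1 KO (adjusted p = 0.562). Without SAMHD1 KO 1 the difference from SAMHD1 KO was -0.63 and did not pass. Dcxr, a sugar reductase, had 367, 367 and 532 in the SAMHD1 MDA5 DKO libraries, 486, 251 and 242 in those of SAMHD1 KO, 351, 520 and 574 in those of MDA5 KO and 535, 373 and 1077 in those of WT. Its difference in SAMHD1 KO minus WT was -0.95 ± 0.39 (adjusted p = 0.315), and -0.52, which did not pass, without WT 3.

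The repair genes Polk, Ddb2 and Xpc each had their lowest level in WT 3. Polk, a translesion DNA polymerase, had 610, 533 and 602 normalised reads in the SAMHD1 MDA5 DKO libraries, 470, 510 and 500 in those of SAMHD1 KO, 634, 511 and 550 in those of MDA5 KO and 438, 401 and 200 in those of WT. Every knockout library lay above every WT library. The difference was 0.82 ± 0.27 in SAMHD1 MDA5 DKO minus WT (adjusted p = 0.127, limma), 0.59 ± 0.27 in SAMHD1 KO minus WT (adjusted p = 0.321) and 0.78 ± 0.27 in MDA5 KO minus WT (adjusted p = 0.196). Without WT 3 they were 0.47, 0.24 and 0.42, of which that of SAMHD1 KO did not pass.

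Ddb2, a sensor of ultraviolet lesions, had 111, 108 and 69.3 normalised reads in the SAMHD1 MDA5 DKO libraries, 86.5, 185 and 175 in those of SAMHD1 KO, 139, 132 and 82.6 in those of MDA5 KO and 61.4, 71.9 and 10.8 in those of WT. SAMHD1 KO and MDA5 KO lay wholly above WT. The difference was 1.33 ± 0.61 in SAMHD1 MDA5 DKO minus WT (adjusted p = 0.176, limma), 1.91 ± 0.61 in SAMHD1 KO minus WT (adjusted p = 0.312) and 1.62 ± 0.61 in MDA5 KO minus WT (adjusted p = 0.196). Without WT 3 they were 0.50, 1.08 and 0.78, of which that of SAMHD1 KO alone passed. Acp2, a lysosomal phosphatase gene on the opposite strand, covers 23.8% of the exonic bases of Ddb2. Xpc, a sensor of bulky lesions, ran from 824 to 1237 over 11 libraries and was at 300 in WT 3, and it passed in no comparison.

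Rps27l had 1303, 1578 and 1816 normalised reads in the SAMHD1 MDA5 DKO libraries, 1402, 3664 and 3240 in those of SAMHD1 KO, 1367, 1866 and 2207 in those of MDA5 KO and 2159, 2522 and 8461 in those of WT. The difference in SAMHD1 MDA5 DKO minus WT was -1.21 ± 0.47 (adjusted p = 0.142, limma), and -0.59, which did not pass, without WT 3. Reads of its near relative Rps27 could be split between both genes, so its level is uncertain.

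SAMHD1 loss was measured on both MDA5 backgrounds in comparisons that share no library, SAMHD1 MDA5 DKO minus MDA5 KO and SAMHD1 KO minus WT. Across the 30 members the log2 differences had the same sign in 23 (76.7%, against 62.8% of all 15130 genes), with a Pearson r of 0.51 and a Spearman rho of 0.43 (0.26 and 0.30 over all genes). Without Phlda3 r was 0.30. For MDA5 loss, SAMHD1 MDA5 DKO minus SAMHD1 KO and MDA5 KO minus WT, 19 signs matched (63.3%, against 67.8%), with r of 0.42 and rho of 0.52 (0.32 and 0.41 over all genes). These values describe genes, which are not independent replicates.

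The interaction asks whether MDA5 loss acts differently when SAMHD1 is missing. Pmaip1 had an interaction of -1.22 ± 0.34 (adjusted p = 0.894, limma): the difference for MDA5 loss was -0.92 without SAMHD1 and 0.30 with it. Ddb2 had -2.20 ± 0.86 (adjusted p = 0.894), and -1.37 without WT 3. These 2 members, 6.67% of 30, were the only ones to pass, as did 3.21% of all genes (0% at an adjusted p). Without SAMHD1 KO 1, 4 members passed (5.31% of all genes), and without MDA5 KO 2, 1 did (3.32%). The interaction of Phlda3 was 0.60 ± 0.63 (adjusted p = 0.895), with a 95% interval of -0.77 to 1.96.

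**Figure D4:**
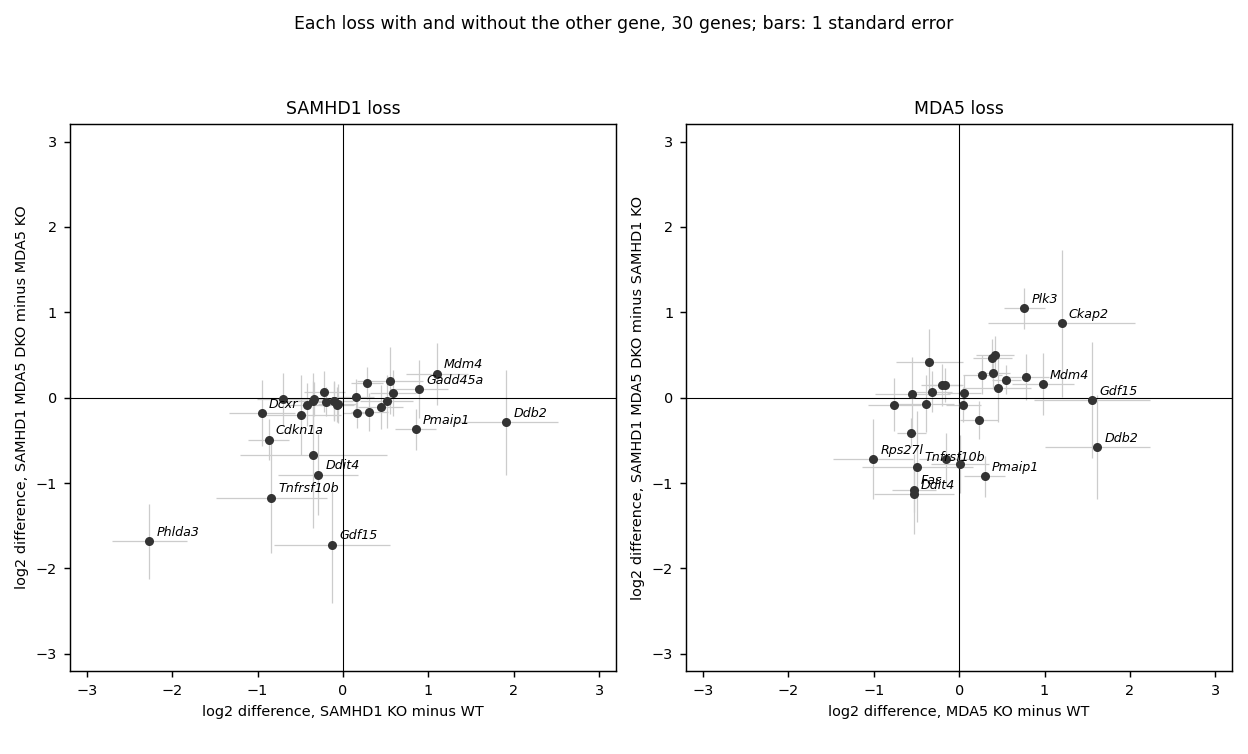
Log2 differences of the 30 tested genes, with bars of 1 standard error. Left: SAMHD1 loss in MDA5 KO (vertical) against SAMHD1 loss in WT (horizontal), where Phlda3 is at -1.68 and -2.27. Right: MDA5 loss in SAMHD1 KO (vertical) against MDA5 loss in WT (horizontal), where Plk3 is at 1.05 and 0.76 and Pmaip1 at -0.92 and 0.30.

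Of 20 genes that act upstream on p53, 0 passed at an adjusted p. At an unadjusted p under 0.05, 7 were higher and 0 lower in SAMHD1 MDA5 DKO minus WT, 4 and 0 in SAMHD1 KO minus WT, and 7 and 1 in MDA5 KO minus WT, against 27.8%, 15.4% and 22.4% of all genes in either direction. Their medians were 0.10, 0.09 and 0.33, against 0.07, 0.03 and 0.08 over all genes. Leaving out WT 3 gave 6 and 0, 2 and 0, and 7 and 0 (17.0%, 8.88% and 13.2% of all genes), with medians of 0.28, 0.13 and 0.19. Without SAMHD1 KO 1, 1 was higher in SAMHD1 KO minus WT (15.1% of all genes). Outside the adjusted set 3 were higher in SAMHD1 MDA5 DKO minus WT (14.4%). Trp53bp1, a protein of double-strand break sites, had 1097, 1305 and 1172 normalised reads in SAMHD1 MDA5 DKO against 883, 649 and 457 in WT (0.89 ± 0.24, adjusted p = 0.127, limma, and 0.65 without WT 3). Atm, the kinase that signals such breaks to p53, had 1161, 1188 and 1159 in MDA5 KO against 835, 685 and 470 in WT (0.86 ± 0.23, adjusted p = 0.196, and 0.63 without WT 3). Cdkn2a, whose ARF product blocks MDM2, had 178, 102 and 117 in SAMHD1 KO against 271, 638 and 317 in MDA5 KO (-1.55 ± 0.41, adjusted p = 0.37). The p53 relatives Trp63 and Trp73 had too few reads to be tested.

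Of 30 further p53 targets 27 were tested, and 0 passed at an adjusted p. At an unadjusted p under 0.05, 7 were higher and 4 lower in SAMHD1 MDA5 DKO minus WT, 1 and 4 in SAMHD1 KO minus WT, and 4 and 3 in MDA5 KO minus WT, against the same shares of all genes. Their medians were 0.05, -0.05 and -0.04, against 0.07, 0.03 and 0.08 over all genes. Without WT 3, when 28 were tested, the counts were 3 and 1, 1 and 2, and 3 and 3 (17.0%, 8.88% and 13.2% of all genes). Without MDA5 KO 2 they were 5 and 1 in SAMHD1 MDA5 DKO minus WT (26.3% of all genes) and 3 and 1 in MDA5 KO minus WT (13.2%). Ptprv, a phosphatase gene induced by p53 in mouse, had 62.7, 34.4 and 41.9 normalised reads in the SAMHD1 MDA5 DKO libraries, 43.2, 39.0 and 28.1 in those of SAMHD1 KO and 48.7, 68.7 and 18.3 in those of MDA5 KO, against 0, 0 and 14.9 in WT. Its adjusted p in SAMHD1 MDA5 DKO minus WT was 0.127 (limma). Notch1, a cell fate receptor, had 8760, 9204 and 9207 in MDA5 KO against 6124, 4548 and 3169 in WT (1.02 ± 0.26, adjusted p = 0.196, and 0.78 without WT 3). Pidd1, which scaffolds caspase activation, had 176, 227 and 205 in SAMHD1 MDA5 DKO against 117, 69.8 and 123 in WT (1.0 ± 0.29, adjusted p = 0.127, and 1.15 without WT 3).

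The 15 proliferation genes that p53 lowers through p21 and DREAM gave 0 adjusted calls. In SAMHD1 MDA5 DKO minus MDA5 KO 14 of 15 were lower, 0 of them with an unadjusted p under 0.05 (1.02% of all genes), with a median of -0.80. The median was -0.85 without MDA5 KO 2 and -0.83 outside the adjusted set, which drops SAMHD1 MDA5 DKO 3. WT 3 and SAMHD1 KO 1 are not in this comparison, so leaving them out cannot show how stable it is. SAMHD1 MDA5 DKO 1, the lowest of its genotype for Mki67, Mcm5 and Mybl2, was not left out for this list. The medians of the comparisons with WT and with SAMHD1 KO moved when 1 of their own libraries was left out. The median was -0.53 in SAMHD1 MDA5 DKO minus WT, -1.15 in SAMHD1 KO minus WT and -0.10 in MDA5 KO minus WT, and without WT 3 it was 0.09, -0.44 and 0.82. In SAMHD1 MDA5 DKO minus SAMHD1 KO all 15 were higher, with a median of 0.59, but without SAMHD1 KO 1 only 4 were, with a median of -0.61. In SAMHD1 KO minus MDA5 KO all 15 were lower, 5 with an unadjusted p under 0.05 (9.53% of all genes) and with a median of -1.37. Without SAMHD1 KO 1, 10 were lower, 1 with an unadjusted p under 0.05 (19.4% of all genes), and the median was -0.10. Mki67, a marker of cycling cells, had 770, 1551 and 1575 normalised reads in the SAMHD1 MDA5 DKO libraries, 279, 1279 and 1327 in those of SAMHD1 KO, 2350, 2262 and 2019 in those of MDA5 KO and 612, 722 and 672 in those of WT. MDA5 KO lay wholly above the other genotypes, by 1.72 ± 0.49 over WT (adjusted p = 0.196, limma). Mcm5, a subunit of the replicative helicase, was at 7437 in WT 3 against 288 to 2631 in the other 11 libraries, and Mybl2, a proliferation transcription factor, at 11.6 in SAMHD1 KO 1 against 34.4 to 169.

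Several p53 targets also answer to the integrated stress response, of which 6 of 7 listed genes were tested and 0 passed at an adjusted p. Ddit3, its death-promoting transcription factor, had 264, 535 and 430 normalised reads in SAMHD1 KO against 177, 200 and 172 in WT (1.10 ± 0.36, adjusted p = 0.312, limma). Ppp1r15a, which ends the response, had 611, 482 and 769 in MDA5 KO against 522, 515 and 159 in WT (0.80 ± 0.38, adjusted p = 0.232, and 0.23 without WT 3). Asns, asparagine synthetase, had 18.3, 3.44 and 7.34 in SAMHD1 KO against 24.8, 28.7 and 24.8 in MDA5 KO (-1.60 ± 0.71, adjusted p = 0.518).

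The authors' deposited tables, which test each pair of genotypes on its own, called more members at an adjusted p under 0.05. The shares of genes in this paragraph are over all genes listed per comparison, 27706 to 31499, including those with too few reads for the filter. Those above are over the 15130 tested genes, and 30 of the 31 members are among these, so the 2 kinds of share are not alike. In SAMHD1 MDA5 DKO minus WT the authors' deposited table called 7 of 31 members, against 7.42% of its genes: Mdm4 and Plk3 higher and Cdkn1a, Ccng1, Phlda3, Ddit4 and Rps27l lower. In SAMHD1 KO minus WT the authors' deposited table called 2 (Mdm4 higher, Phlda3 lower), against 0.606% of its genes, and in MDA5 KO minus WT 2 (Plk3 higher, Ccng1 lower), against 2.17%. In SAMHD1 MDA5 DKO minus SAMHD1 KO the authors' deposited table called 3 (Plk3 higher, Pmaip1 and Fas lower), against 1.83%. In SAMHD1 MDA5 DKO minus MDA5 KO the authors' deposited table called Phlda3, lower, against 0.159% of its genes, and between SAMHD1 KO and MDA5 KO it called Fas, higher in SAMHD1 KO, against 0.802%. The log2 difference of Phlda3 in the authors' deposited tables was -1.73 in SAMHD1 MDA5 DKO minus WT, -1.67 in SAMHD1 KO minus WT and -0.79 in SAMHD1 MDA5 DKO minus MDA5 KO, with adjusted p-values of 0.00084, 0.00258 and 0.0246.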

How the data were processed

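RNA sequencing of 12 libraries, 3 per genotype, was used as 6 deposited tables of 6 libraries each. Per the submitters' processing notes, STAR, Salmon, R 4.1.2 and DESeq2 were used, with the builds GRCm38 and mm10. In the library columns the authors deposited log2 values. Their spacing shows a variance-stabilising transform, followed by an adjustment that levels 3 of the libraries with the 9 others. The deposited mean column (baseMean, per the file headers) is a signal on the scale of size-factor-corrected reads. The fold changes are on the log2 scale with their standard error, and the authors also deposited a p-value and an adjusted p per gene. Whole reads were recovered from these columns for all 33641 genes, undoing that adjustment. At a tolerance of 0.05 reads 100% were whole in each table. The 12 libraries held 33234361 to 58345425 reads, and intervals cover the spread between libraries. Tests were made on the log2 scale, with voom on the recovered reads as an alternative, and no count model was run. 0 library columns were left unused.

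Reads over median-of-ratios size factors were analysed as log2(value + 1). The filter asked for 10 reads in a library of median depth, a CPM of 0.228, in 3 or more libraries, and left 15130 genes. A fold change on this scale understates the change of low genes. The linear model of limma 3.58.1 (R 4.3.3) held genotype alone, over all 12 libraries, with trended, robust variance moderation. Adjusted p-values follow Benjamini and Hochberg, with a threshold of 0.05. Tests were two-sided. The scripts were tested on simulated data. The members and lists were chosen with earlier results of these data known. Values in every library are given for Trp53, Mdm2, Mdm4, Cdkn1a and each member with an unadjusted p under 0.05 in a pairwise comparison, and from each list up to 3 genes with the smallest p in a pairwise comparison are named. Positions are those of the files. All 31 members matched GENCODE M21 by identifier, and 25 had the same coordinates there. Lists were described by counts and medians, with no set test.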

Additional observations from a re-analysis of the deposited data

How the results depend on the processing

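Of the 51 differences of members with an unadjusted p under 0.05, 0 changed sign under any alternative run, and 0 passed the adjusted threshold except with array quality weights (45), the deposited log2 values (6), and without WT 1 (4) or SAMHD1 KO 1 (2). In the libraries outside the adjusted set only, an alternative chosen after seeing the data, 27 of 51 kept a p under 0.05. The numbers of genes called in SAMHD1 KO minus WT, SAMHD1 MDA5 DKO minus SAMHD1 KO, MDA5 KO minus WT, SAMHD1 MDA5 DKO minus MDA5 KO, SAMHD1 MDA5 DKO minus WT and SAMHD1 KO minus MDA5 KO were 0, 2, 1, 0, 1 and 1. With array quality weights, whose fit did not converge fully, they were 6829, 6795, 4392, 2, 5765 and 6724 (16, 15, 12, 0, 15 and 17 of them members), and 1333 for the interaction (2 members). Outside the adjusted set they were 1, 0, 0, 2, 1 and 16. With the deposited log2 values they were 2, 8, 0, 0, 1223 and 0. The last but one includes 6 members. Without a filter, SAMHD1 MDA5 DKO minus SAMHD1 KO had 0 and SAMHD1 KO minus MDA5 KO 5. Scaling by total reads gave 0 in SAMHD1 MDA5 DKO minus SAMHD1 KO and in MDA5 KO minus WT, voom gave 0 in each comparison with a call, and a pseudocount of 5 gave 2 in SAMHD1 MDA5 DKO minus WT. The adjusted set as a term gave 0 in MDA5 KO minus WT, 9 in SAMHD1 MDA5 DKO minus WT and 11 in SAMHD1 KO minus MDA5 KO. The cause of these shifts was not tested. Leaving out 1 library gave 0 to 2, 0 to 134 (without SAMHD1 KO 1), 0 to 5, 0 to 1, 0 to 1781 (without WT 1) and 0 to 176 (without SAMHD1 KO 1), and 0 for the interaction. The members' median difference then ranged from -0.12 to -0.03, -0.02 to 0.06, -0.01 to 0.20, -0.12 to -0.06, -0.11 to 0.04 and -0.16 to -0.06, and from -0.21 to -0.06 for the interaction. With the replicate number as a block the calls were 0 in SAMHD1 MDA5 DKO minus SAMHD1 KO, MDA5 KO minus WT and SAMHD1 MDA5 DKO minus WT and 2 in SAMHD1 KO minus MDA5 KO. The deviations of same-numbered libraries correlated above 0.1 in 8 of 18 pairs (-0.0566 to 0.337). Differently numbered libraries were not set beside them, so this does not settle whether the numbers pair the libraries.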
